A study of Homo sapiens
Mus musculus with 8 samples.

Results

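The genes described here are the translation initiation and elongation factors of 4 lymphocyte cell lines. They were chosen by name alone: every annotated gene whose symbol, once the species prefix is removed, begins with eIF1 to eIF6, eEF1 or eEF2 in upper or lower case, except for 2 Y-linked genes. The rule found 131 of 60736 annotated genes, of which 67 are human (of 32738 human genes) and 64 are mouse (of 27998 mouse genes). The rule itself uses names and no measured value. A few members carry the name without being factors, among them the antisense transcripts EIF3J-AS1, EIF2B5-AS1 and EIF1AX-AS1, the Argonaute-type gene Eif2c5 and the methyltransferase gene Eef2kmt. Eef1e1, a scaffold of the tRNA synthetase complex, is another and is counted with the eEF1 genes.

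The libraries were made by droplet single-cell RNA-seq from equal parts of the mouse CD4 T cell line EL4, the mouse B cell line IVA12, the human CD4 T cell line Jurkat and the human CD8 T cell line TALL-104. All 4 lines are ATCC lines grown in culture, with no treatment named. EL4 (with mercaptoethanol) and Jurkat grew in RPMI medium, and IVA12 in DMEM. TALL-104, whose cells are small, was kept in IMDM with more serum and with interleukin 2. The paper describes TALL-104 as harder to culture, with slow growth and limited viability. Line, medium and state of the culture cannot be told apart in the line comparisons. The same kind of mixture was run with 3 kits of 10x Genomics: 3′ v3 (4 libraries), 5′ v1 (2 libraries) and 3′ v2 (1 library analysed here; the other listed 3′ v2 library was not analysed here). The aim was to compare how such methods profile immune cells of different size; the comparisons below are between the lines of one species, between kits within a line, and of the line difference between kits. Each line stands for a single transformed culture and not for primary T or B cells.

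Translation begins when eIF2 brings the initiator tRNA to the small ribosomal subunit, which eIF1, eIF1A, eIF3 and eIF5 help to load and to position at the start codon. The eIF4 factors recruit it to the capped mRNA: eIF4E binds the cap, eIF4G is the scaffold, eIF4A is an RNA helicase and the 4E-BP proteins (Eif4ebp genes) hold eIF4E back. The eIF2 kinases (Eif2ak genes) lower initiation under stress by phosphorylating eIF2, which eIF2B otherwise recharges with GTP. During elongation eEF1A delivers aminoacyl-tRNA, the eEF1B subunits recharge eEF1A, eEF2 moves the ribosome along the mRNA and eEF2K inhibits eEF2. Lymphocytes raise the output of this machinery when they grow and divide.

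Libraries held 24790710 to 251164949 UMIs (unique molecular identifiers, each a count of one captured molecule), and 41 to 3275 cells per line and library passed the limits of at least 1000 UMIs, over 80% of them from one species, and under 10% from mitochondrial genes. TALL-104-like cells were the thinnest group, with 75 and 41 cells and 233682 and 218592 UMIs in the 5′ v1 libraries. Cells were assigned to a line by clustering and marker genes, without the members, and are called EL4-like, IVA12-like, Jurkat-like and TALL-104-like. Of the listed markers, 13 to 14 of 20 for EL4, 8 of 22 for IVA12, 5 to 11 of 19 for Jurkat and 20 to 23 of 24 for TALL-104 were over 1.5-fold higher than in the other line of the species. The summed markers of IVA12 held 628.1 to 1062 CPM (UMIs of a gene per 1000000 UMIs of the cell's own species) in IVA12-like and 8.699 to 27.71 CPM in EL4-like cells. Those of Jurkat separated the lines less, with 3688 to 4040 CPM in Jurkat-like and 1669 to 2928 CPM in TALL-104-like cells. Some defining markers were nearly absent: Cd4 stood at 0.0612 CPM in EL4-like cells, and Cd79a at 0.198 CPM in IVA12-like cells, which had 278 CPM of Cd79b and 158 CPM of Ms4a1. By the study's sample sheet, 3′ v3 replicates 1 and 3 came from one cell mixture and replicates 2 and 4 from another. The mitochondrial limit kept 96.3% and 99.3% of Jurkat-like barcodes in replicates 1 and 3 but 45.6% and 40.5% in replicates 2 and 4. In TALL-104-like barcodes it kept 79.8%, 64.2%, 99.6% and 49.6% in replicates 1 to 4. The labels do not say that libraries were separate cultures. The 4 libraries of 3′ v3 came from 2 cell mixtures, so the tests and SDs count libraries and not independent cultures. The p-values measure the spread between libraries, in the line comparisons that of the line difference, and this spread may be technical. In sums over cells, fewer transcripts per cell and fewer cells that carry a gene cannot be told apart.

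The members held between 1.5% and 4.32% of the UMIs of a line, and IVA12-like cells gave them the most. In 3′ v3 the share was 2.53% to 2.65% in EL4-like and 3.54% to 3.76% in IVA12-like cells, without overlap (means 2.57% ± 0.0542 and 3.67% ± 0.102, SD, n = 4). The 5′ v1 libraries gave 3.53% and 3.86% in EL4-like and 4.21% and 4.32% in IVA12-like cells. Among the human lines, Jurkat-like cells held 2.06% to 2.23% in 3′ v3 (mean 2.14% ± 0.0813, SD, n = 4) and 2.40% and 2.45% in 5′ v1. TALL-104-like cells held 2.13% and 1.97% in 3′ v3 replicates 1 and 3 but 1.51% and 1.54% in replicates 2 and 4, so its 3′ v3 libraries stood apart by mixture, and 2.87% and 3.16% with 5′ v1. In the single 3′ v2 library, which allows no test, the shares were 1.72% (EL4-like), 2.52% (IVA12-like), 1.66% (Jurkat-like) and 1.5% (TALL-104-like). Barcodes with under 100 UMIs, which hold mostly free RNA, gave 1.57% to 2.32% of their human and 2.54% to 3.72% of their mouse UMIs to members, which overlaps the range of the cells.

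**Figure D1:**
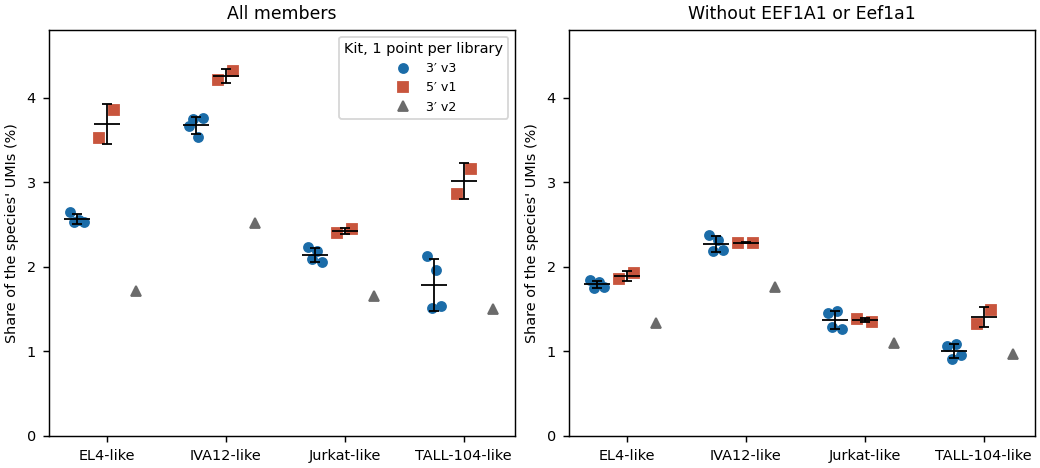
Share of a line's own-species UMIs held by the members (y axis, %), for the 4 lines (x axis), with all members on the left and without Eef1a1 on the right; each point is 1 library, coloured by kit, and bars give the mean and SD of 3′ v3 and 5′ v1. IVA12-like cells stand highest in both panels, and the distance between 5′ v1 and 3′ v3 shrinks in all 4 lines when Eef1a1 is left out.

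One gene, Eef1a1, the main form of eEF1A, made up much of that share. It held 30.1% ± 0.858 of the members' UMIs in EL4-like cells in 3′ v3 and 48.7% ± 1.68 in 5′ v1 (SD; n = 4, then 2). Without it, the members' share was 1.80% ± 0.0423 and 1.89% ± 0.0585 in EL4-like cells and 2.27% ± 0.0924 and 2.29% ± 0.00335 in IVA12-like cells, for the same kits in turn. It was 1.37% ± 0.110 with 3′ v3 and 1.38% and 1.35% with 5′ v1 in Jurkat-like cells. In TALL-104-like cells it went from 1.01% ± 0.0823 with 3′ v3 to 1.33% and 1.5% with 5′ v1, without overlap. The 6 members with the most UMIs held 60.5% to 77.7% of the members' total in the 3′ v3 and 5′ v1 kits. UMIs count one end of each transcript and were not divided by length, so this is an order of captured molecules. Eef1a1, Eef2, which moves the ribosome, and Eef1b2, an exchange subunit of eEF1B, were among the first 6 in all 4 lines with both kits. With 5′ v1, Eif3f, a subunit of eIF3, joined them in all 4 lines.

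In the comparison of the mouse lines with 3′ v3, members were lower in EL4-like than in IVA12-like cells more often than higher: of 61 members tested, 32 were lower, 16 were higher and 13 did not pass the test. Over all 13096 genes tested, 39.5% were lower and 41.2% higher, and the median log2 difference was −0.18 for the members and 0.02 for all genes. With 5′ v1, 35 members were lower and 16 higher, against 39.4% and 37.3% of all genes, with medians of −0.45 and −0.03. Without the library block 15 members were lower and 9 higher with 3′ v3, and 20 and 10 with 5′ v1. The kits come from different libraries but share 1 fit. Unless another test is named, adjusted p-values are from edgeR's quasi-likelihood test with Benjamini-Hochberg adjustment over all tested genes of the species. The library was a block in the line comparisons, and the kit comparisons within a line had no block. A gene was called at an adjusted p under 0.05. In both kits 41 members were called: 11 were higher in EL4 with both, 27 were lower with both (32.5% of all genes tested in each direction), and Eef2, Eif3b and Eif5 had opposite directions (Eif3b and Eif5 are named here because their values were seen). The CPM of Eef2 did not keep a single direction over the 5′ v1 libraries. Eif3b was higher in EL4 by log2 0.02 to 0.13 within the 3′ v3 libraries. Of the 48 members called with 3′ v3, 47 had the fitted direction in all 4 libraries and so in both cell mixtures; the exception was Eif3k, named here because its value was seen.

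**Figure D2:**
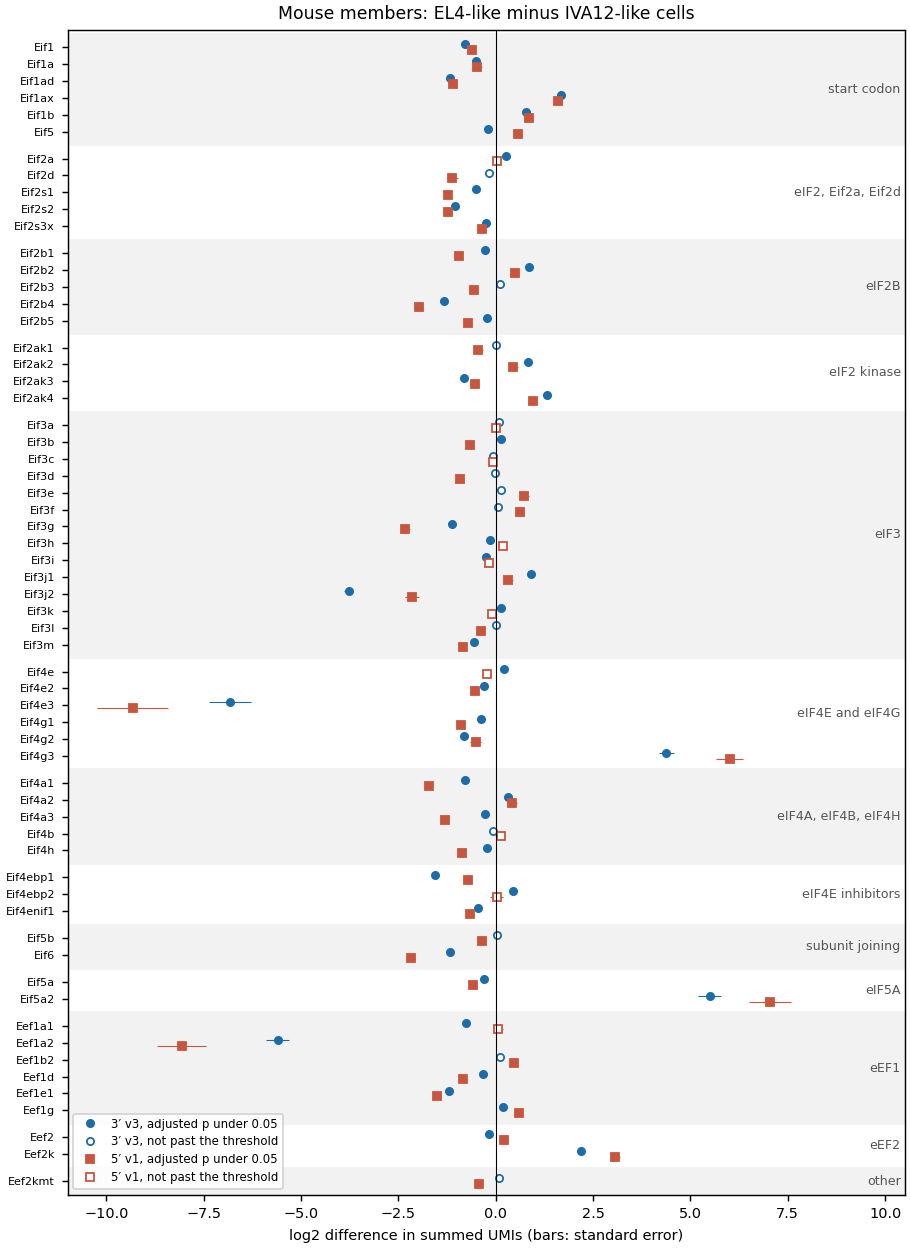
Log2 difference between EL4-like and IVA12-like cells (x axis, EL4 minus IVA12) for every tested mouse member, grouped by role (y axis); circles are 3′ v3 and squares 5′ v1, filled where the adjusted p is under 0.05, with bars for the standard error. Eif5a2, Eif4g3 and Eef2k stand furthest on the EL4 side, and Eif4e3 and Eef1a2 on the IVA12 side, with both kits.

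Among the elongation factors the largest contrast was in Eef1a2, a second form of eEF1A known from muscle and nerve. It stood at 61.1, 65.7, 49.2 and 58.0 CPM in IVA12-like cells in 3′ v3 replicates 1 to 4, and at 0.547, 0.444, 1.86 and 0.897 CPM in EL4-like cells. In 5′ v1 it was at 56.2 and 46.5 CPM in IVA12-like against 0.0976 and 0.278 CPM in EL4-like cells, and in 3′ v2 at 60.3 and 0.171 CPM. Every IVA12 value lay far above every EL4 value, and the log2 difference was −5.60 ± 0.30 (SE) with 3′ v3 and −8.07 ± 0.62 with 5′ v1. The EL4 side of the 5′ v1 contrast rests on 8 UMIs, which against 1749 UMIs in IVA12 gives a ratio of 323 (95% exact counting interval 164 to 749). Eef2k, the kinase that inhibits eEF2, had the reverse pattern. It was at 35.3, 42.8, 31.4 and 41.7 CPM in EL4-like against 7.41, 9.70, 7.63 and 10.3 CPM in IVA12-like cells, a log2 difference of 2.19 ± 0.07 in 3′ v3 and 3.07 ± 0.12 in 5′ v1, without overlap.

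The abundant elongation factors differed by less, and some of them were called with one kit and not with the other. Eef1a1 ran from 7360 to 8041 CPM in EL4-like cells and from 12220 to 15580 CPM in IVA12-like cells in 3′ v3, without overlap (log2 −0.78 ± 0.08, edgeR adjusted p = 1e-05). In 5′ v1 it was at 16780 and 19270 CPM against 19180 and 20400 CPM, which overlap, though EL4 was the lower line within each library. The fitted difference, from scaled counts, had the other sign and did not pass the test (log2 0.06 ± 0.12, edgeR adjusted p = 0.64). Eef2 was lower in EL4 with 3′ v3 (log2 −0.18 ± 0.06) and called higher with 5′ v1 (0.22 ± 0.08), where the levels overlapped, at 3106 and 3617 CPM in EL4-like and 3219 and 3400 CPM in IVA12-like cells. By these levels EL4 was the lower line in 5′ v1 replicate 1 and the higher line in replicate 2. The eEF1B subunits split: Eef1d was lower in EL4 (−0.33 ± 0.06 and −0.83 ± 0.08 with the kits in turn), Eef1g was higher (0.19 ± 0.05 and 0.59 ± 0.07), and Eef1b2 was higher with 5′ v1 (0.48 ± 0.08) and not called with 3′ v3 (0.11 ± 0.06). Eef1e1, a scaffold of the tRNA synthetase complex that carries the family name, was lower in EL4 with both kits (−1.19 ± 0.06 and −1.51 ± 0.09). Of 6 eEF1 genes tested, Eef1e1 among them, 4 were lower and 1 higher in 3′ v3, and 3 lower and 2 higher in 5′ v1. Over all genes 39.5% were lower and 41.2% higher with 3′ v3, and 39.4% and 37.3% with 5′ v1.

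The eIF4E and eIF4G genes held a member that was nearly absent from EL4. Eif4e3, an atypical cap-binding protein, was at 1.26, 1.48, 1.05 and 1.35 CPM in IVA12-like cells in 3′ v3 and at 3.03 and 2.58 CPM in 5′ v1. In EL4-like cells it had 1 UMI in the 4 libraries of 3′ v3 together and none in 5′ v1 or 3′ v2. The 3′ v3 counts, 139 UMIs against 1, give a ratio of 202 (95% exact counting interval 35.7 to 8.05e+03), and the 5′ v1 counts, 95 against 0, make it at least 46.8-fold higher in IVA12 when EL4 is set to a floor of 3 UMIs over the group. Its level was low in IVA12 too. Eif4g3, one of the eIF4G scaffolds, stood at 51.5, 96.7, 47.2 and 99.0 CPM in EL4-like against 3.29, 4.27, 3.61 and 2.53 CPM in IVA12-like cells, a log2 difference of 4.38 ± 0.20, and of 6.01 ± 0.34 with 5′ v1. The other scaffolds went the other way: Eif4g1 was lower in EL4 by log2 −0.37 ± 0.05 and −0.90 ± 0.08 with 3′ v3 and 5′ v1 in turn. Eif4g2, a relative of eIF4G without the part that binds eIF4E, was lower by −0.81 ± 0.10 and −0.52 ± 0.14. The canonical Eif4e was slightly higher in EL4 with 3′ v3 (0.21 ± 0.07) and not called with 5′ v1 (−0.22 ± 0.11). Its log2 ratio with 3′ v3 was 0.21 in the mixture of replicates 1 and 3 and 0.04 in the other. Of the 6 eIF4E and eIF4G genes tested edgeR called 2 higher with 3′ v3 and DESeq2 1, and both called 4 lower. Over all genes edgeR called 41.2% higher and 39.5% lower.

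**Figure D3:**
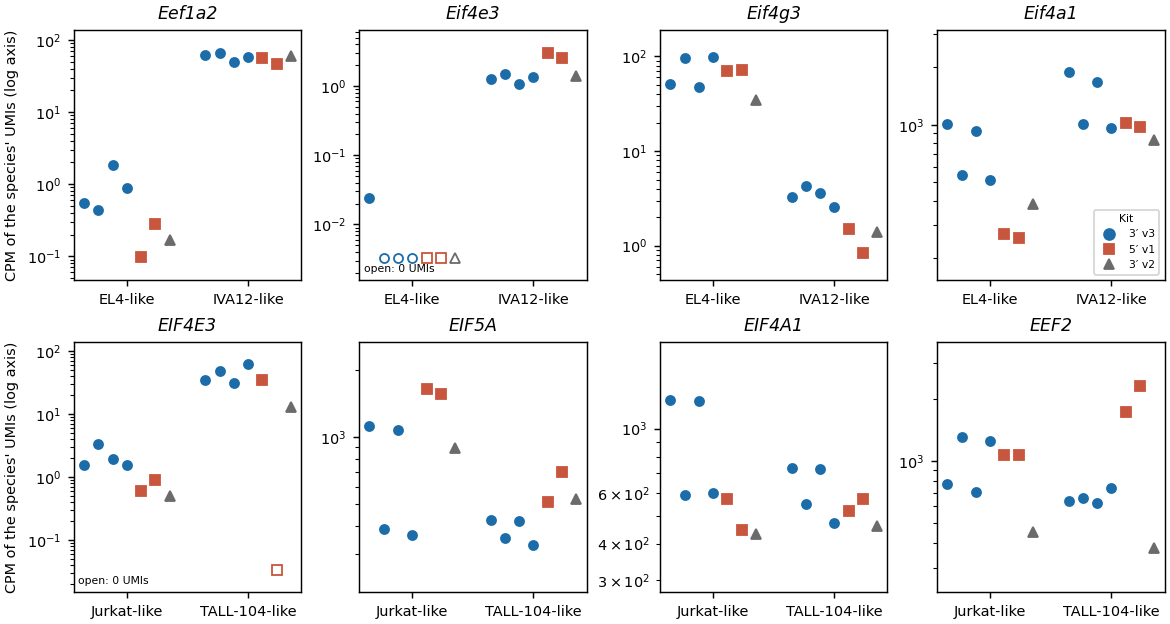
Level of 8 members in each library (y axis, CPM on a log scale; x axis, line), coloured by kit; open markers stand for 0 UMIs. Eef1a2, Eif4e3 and Eif4g3 separate the mouse lines in every library, Eif4a1 separates them within a library, EIF4E3 separates the human lines except in 1 TALL-104 library with 0 UMIs, and EIF5A, EIF4A1 and EEF2 shift between mixtures or kits.

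Of the genes that hold eIF4E back, Eif4ebp1, the main target of mTORC1 among them, was at 128, 152, 128 and 158 CPM in EL4-like against 450, 438, 428 and 450 CPM in IVA12-like cells. It was lower in EL4 by log2 −1.57 ± 0.06 with 3′ v3 and −0.71 ± 0.08 with 5′ v1, where the levels were 284 and 298 CPM against 529 and 567 CPM. Eif4ebp2 was higher in EL4 with 3′ v3 (0.44 ± 0.11) and showed no called difference with 5′ v1 (0.02 ± 0.17). Its log2 ratio with 3′ v3 was 0.59 in the mixture of replicates 1 and 3 and 0.13 in the other. The helicase Eif4a1 stood at 1013, 543, 929 and 515 CPM in EL4-like against 1885, 1005, 1671 and 958 CPM in IVA12-like cells. The groups overlap across the 2 mixtures, since replicates 1 and 3 were high in both lines, but EL4 was the lower line in every library (log2 −0.80 ± 0.05, and −1.73 ± 0.08 in 5′ v1). Its close relative Eif4a2 was higher in EL4 (0.32 ± 0.09 and 0.41 ± 0.13). With 3′ v3 the log2 ratio of Eif4a2 was 0.42 in the mixture of replicates 1 and 3 and 0.05 in the other. Eif6, which keeps the large ribosomal subunit from joining too early, was lower in EL4, at 125 to 158 CPM against 264 to 415 CPM (log2 −1.17 ± 0.07, and −2.17 ± 0.10 in 5′ v1). Eif5b, which joins the subunits, was not called with 3′ v3 (0.02 ± 0.07) and lower with 5′ v1 (−0.35 ± 0.10).

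The start codon group was divided by gene. Eif1ax was higher in EL4-like cells, at 400, 304, 387 and 304 CPM against 143, 92.5, 136 and 92.9 CPM (log2 1.68 ± 0.05 and 1.59 ± 0.08 with the kits in turn). Eif1a, a near-identical copy of it, was lower (−0.50 ± 0.09 and −0.48 ± 0.13). Reads of the pair can be split wrongly, but their sum also differed, at 453 ± 34.2 CPM in EL4-like against 276 ± 20.9 CPM in IVA12-like cells (3′ v3, SD, n = 4), without overlap. Eif1, which guards start codon choice, was lower in EL4 (−0.80 ± 0.06 and −0.61 ± 0.08), and so was Eif1ad, a gene named for its eIF1A-like domain (−1.17 ± 0.07 and −1.10 ± 0.10). Eif1b was higher (0.77 ± 0.07 and 0.84 ± 0.10). In 3′ v3, 2 of the 6 genes of this group were higher and 4 lower, against 41.2% and 39.5% of all genes, and in 5′ v1 3 were higher and 3 lower, against 37.3% and 39.4%.

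The eIF2 group held the 3 subunit genes of eIF2 and Eif2a and Eif2d, which are separate factors. All 3 subunit genes were lower in EL4 with both kits, against 39.5% and 39.4% of all genes; Eif2s3x, the gamma subunit, differed by −0.24 ± 0.05 and −0.36 ± 0.07. Eif2d was lower with 5′ v1 (−1.12 ± 0.14), and Eif2a was higher with 3′ v3 (0.27 ± 0.05). Eif2s2, the beta subunit, ran from 992 to 1355 CPM in IVA12-like cells and from 424 to 703 CPM in EL4-like cells in 3′ v3, without overlap (log2 −1.04 ± 0.08, and −1.22 ± 0.11 in 5′ v1). Eif2s1, the alpha subunit that the stress kinases phosphorylate, was lower by −0.51 ± 0.06 and −1.23 ± 0.09. The kinase genes were divided: Eif2ak2 (PKR, which senses double-stranded RNA) and Eif2ak4 (GCN2, which senses amino acid shortage) were higher in EL4 (0.83 ± 0.08 and 1.31 ± 0.08 in 3′ v3), while Eif2ak3 (PERK, of the endoplasmic reticulum) was lower (−0.81 ± 0.07). Those 3 directions held in 5′ v1 (0.45 ± 0.12, 0.95 ± 0.12 and −0.54 ± 0.10). Among the eIF2B subunits Eif2b4 was the most different, lower in EL4 by −1.34 ± 0.07 and −1.98 ± 0.11, and Eif2b2 was higher (0.84 ± 0.07 and 0.50 ± 0.10).

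The eIF3 complex, the largest group with 14 mouse genes tested, had 3 genes higher and 5 lower in 3′ v3 and 3 higher and 6 lower in 5′ v1, against 41.2% higher and 39.5% lower among all genes with 3′ v3 and 37.3% and 39.4% with 5′ v1. DESeq2 called 1 of them higher and 6 lower in 3′ v3, and 4 higher and 6 lower in 5′ v1. Eif3e was not called in 3′ v3 (0.13 ± 0.10) and was higher in EL4 in 5′ v1 (0.72 ± 0.14). Eif3g, a subunit that aids scanning, was lower in EL4 at 149 to 165 CPM against 318 to 418 CPM (log2 −1.13 ± 0.08, and −2.33 ± 0.12 in 5′ v1). The near-identical copies Eif3j1 and Eif3j2 moved apart: Eif3j1 was higher (0.90 ± 0.08) and Eif3j2 lower (−3.78 ± 0.10) in EL4 with 3′ v3. Their sum in 3′ v3, 162 ± 39.9 CPM in EL4-like against 128 ± 27.7 CPM in IVA12-like cells (SD, n = 4), overlapped between the lines, though EL4 was the higher line in each of the 4 libraries. In 5′ v1 EL4 was the lower line, with sums of 37.1 and 35.3 CPM against 44.4 and 41.1 CPM. Eif3j2 made up 1.55% ± 0.269 of the 3′ v3 sum in EL4 and 29.4% ± 4.82 in IVA12. Of the eIF5A pair, which eases the ribosome past stalling sequences, Eif5a was a little lower in EL4 (−0.30 ± 0.06 and −0.59 ± 0.09). Eif5a2, its rare form, was at 3.0, 5.26, 2.14 and 4.25 CPM in EL4-like cells and at most at 0.0867 CPM in IVA12-like cells. With 516 UMIs against 8 in 3′ v3, the ratio was 44.3 (95% exact counting interval 22.3 to 103).

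In the human comparison with 3′ v3, members were mostly higher in Jurkat-like than in TALL-104-like cells: of 60 tested, 34 were higher, 7 lower and 19 not called, against 36.2% higher and 27.4% lower among all 11509 genes tested. The median log2 difference was 0.47 for members and 0.16 for all genes. With 5′ v1, where TALL-104 is thin, 7 were higher and 7 lower, against 10.3% and 12.5% of all genes; without 5′ v1 replicate 1 edgeR called no member, with 10 at an unadjusted p under 0.05 (DESeq2 called 5 and 7 on the full set), and without replicate 2 the counts were 8 and 2. The 5′ v1 counts became 14 and 2 with a mitochondrial limit of 5%, 11 and 7 without cells high in markers of the other line, and 1 and 2 without the library block. In both kits 10 members were called, 6 higher with both (9.46% of all genes), 3 lower with both (11.5% of all genes) and EEF2 opposite. Of the 41 members called with 3′ v3, 33 had the fitted direction in all 4 libraries and 38 in both mixtures. In 3′ v3 the count of higher members fell without the library block, and that of lower members fell with a mitochondrial limit of 5%, both given below. The 3′ v3 count of higher members depended on the mixture: with replicates 1 and 3 alone 34 were higher, with replicates 2 and 4 alone 17, and it was 19 without replicate 1 and 20 without replicate 3. It also fell to 17 when cells needed over 95% of UMIs from one species and to 22 with at least 2000 UMIs per cell; in TALL-104-like cells the median share of mouse UMIs reached 15.3% in 3′ v3 replicate 3, and the part of such UMIs in these differences was not tested.

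**Figure D4:**
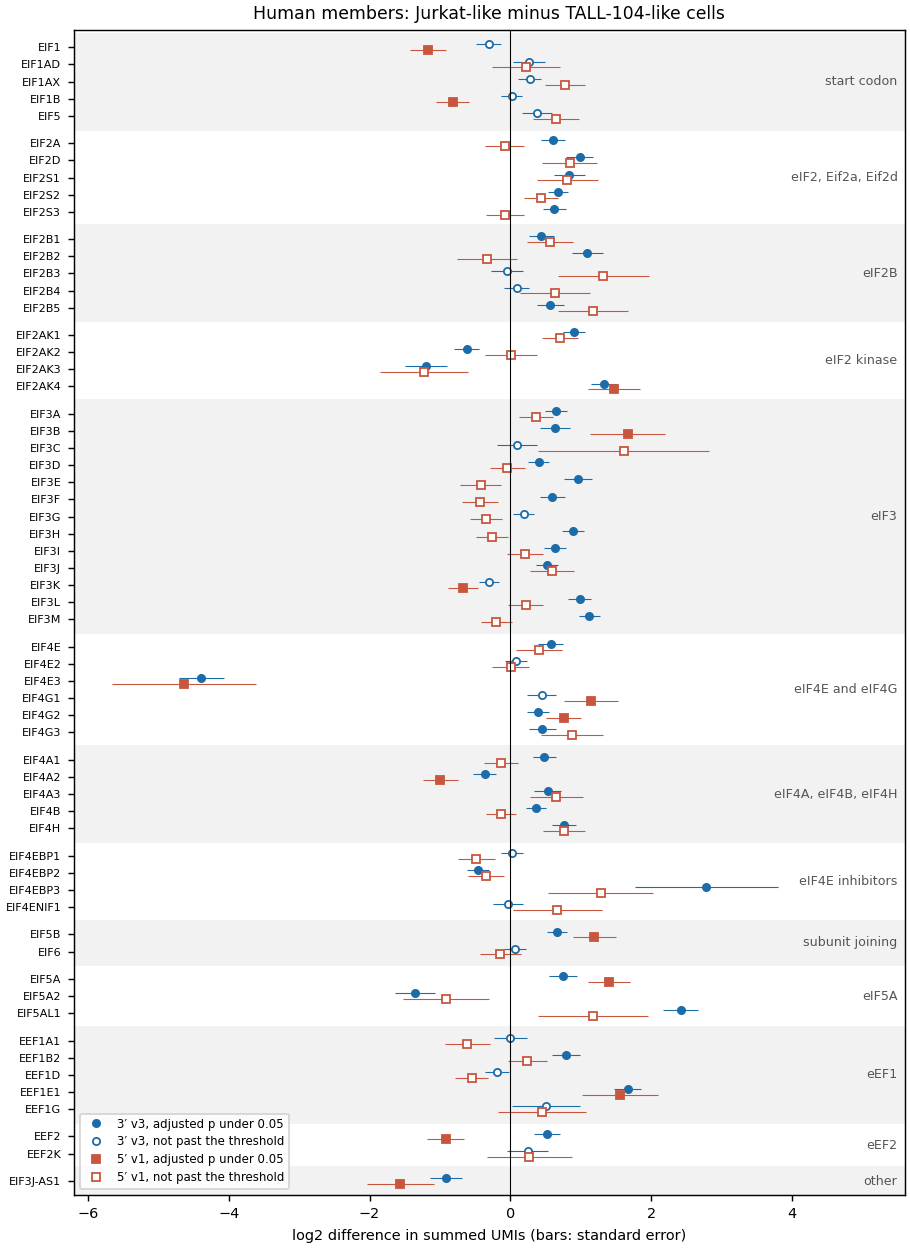
Log2 difference between Jurkat-like and TALL-104-like cells (x axis, Jurkat minus TALL-104) for every tested human member, grouped by role (y axis); circles are 3′ v3 and squares 5′ v1, filled where the adjusted p is under 0.05, with bars for the standard error. Most 3′ v3 points lie on the Jurkat side, EIF4E3 stands alone far on the TALL-104 side, and the 5′ v1 bars are wider.

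EIF4E3, the atypical cap-binding gene, differed most between the human lines. It stood at 34.3, 47.7, 31.2 and 62.4 CPM in TALL-104-like against 1.55, 3.35, 1.97 and 1.56 CPM in Jurkat-like cells in 3′ v3, without overlap (log2 −4.39 ± 0.32, edgeR adjusted p = 1.4e-09). In 5′ v1 it was at 34.2 CPM in 1 TALL-104 library and had 0 UMIs in the other, where 41 cells were left, against 0.605 and 0.904 CPM in Jurkat (−4.64 ± 1.02). Without 5′ v1 replicate 1 this value rests on a TALL-104 library with no UMI and turned to 6.29, not called. The other eIF4E and eIF4G genes included some on the Jurkat side: EIF4E was higher in Jurkat (0.57 ± 0.18 in 3′ v3), as was EIF4G2 (0.39 ± 0.16 and 0.76 ± 0.24). In 3′ v3 their log2 ratios were 0.92 and 0.76 in the mixture of replicates 1 and 3, and 0.18 and 0.05 in the other. Of the 6 eIF4E and eIF4G genes tested edgeR called 3 higher with 3′ v3 and 2 with 5′ v1, and DESeq2 called 1 with each. Over all genes edgeR called 36.2% higher with 3′ v3 and 10.3% with 5′ v1. EIF4G1 was not called in 3′ v3, where it stood at 127, 123, 131 and 144 CPM in Jurkat-like cells but at 53.6, 149, 60.4 and 169 CPM in TALL-104-like cells, which were low in one mixture and high in the other. In 5′ v1 it was higher in Jurkat (1.14 ± 0.39).

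Of the human genes with elongation factor names, EEF1E1, the tRNA synthetase scaffold, was higher in Jurkat in 3′ v3, without overlap (log2 1.66 ± 0.19). It stood at 160, 67.0, 152 and 56.6 CPM against 36.1, 27.8, 37.7 and 29.3 CPM. Its 5′ v1 difference of 1.56 ± 0.54 rests on 6 UMIs in TALL-104, a count ratio of 3.04 (95% exact counting interval 1.39 to 8.3). EEF1B2 was higher with 3′ v3 (0.79 ± 0.20) and not called with 5′ v1 (0.24 ± 0.28). EEF1D was not called with either kit (−0.19 ± 0.17 and −0.55 ± 0.24). EEF1A1 ran from 7136 to 8095 CPM in Jurkat-like cells, while TALL-104-like cells had 10690, 5987, 8798 and 5795 CPM in replicates 1 to 4, high in the first mixture and low in the second. The difference over 3′ v3 was −0.00 ± 0.23 and not called, and within the mixtures it was −0.38 and 0.44. With 5′ v1 EEF1A1 was at 10180 and 10980 CPM in Jurkat-like cells against 15370 and 16680 CPM, without overlap, and was not called (−0.61 ± 0.32). EEF1A1 has many processed copies in the genome, so its counts are uncertain in that way. EEF2 was higher in Jurkat in 3′ v3 (704 to 1316 CPM against 625 to 736 CPM, overlapping, log2 0.52 ± 0.19) and lower in 5′ v1 (1065 and 1075 CPM against 1733 and 2310 CPM, −0.92 ± 0.26). EEF2K was not called in either kit (0.24 ± 0.30 and 0.27 ± 0.61).

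Among the initiation groups in 3′ v3, all 5 genes of the eIF2 group (3 subunit genes, EIF2A and EIF2D) and 10 of 13 eIF3 genes tested were higher in Jurkat, as were 3 of 5 eIF2B genes and 4 of the 5 genes of the eIF4A helicases and their cofactors eIF4B and eIF4H (5, 9, 1 and 2 with DESeq2), against 36.2% of all genes. Of the eIF4E and eIF4G genes 3 of 6 were higher and 1 lower (1 and 1 with DESeq2). Of the subunit joining genes 1 of 2 was higher, and the 4 eIF2 kinase genes split into 2 higher and 2 lower. Of the 5 start codon recognition genes edgeR and DESeq2 called 0, with 0 at an unadjusted p under 0.05. In the eIF2, eIF3, eIF2B and eIF4A groups EIF4A2 was the only gene that edgeR called lower, while DESeq2 called 1 eIF3 gene lower and not EIF4A2. EIF2S2 was higher by 0.68 ± 0.14 and EIF2S1 by 0.84 ± 0.22. For EIF2S1 the log2 ratio was 1.55 in the mixture of replicates 1 and 3 and −0.04 in that of replicates 2 and 4; EIF4A3 and EIF4G3, chosen after their values were seen, also had opposite signs in the 2 mixtures. EIF3M stood at 482, 307, 452 and 303 CPM in Jurkat-like against 220, 113, 201 and 159 CPM in TALL-104-like cells, without overlap (1.12 ± 0.15). EIF3E was at 646, 534, 723 and 533 CPM against 485, 167, 449 and 213 CPM (0.96 ± 0.20). EIF3L and EIF3H were higher as well (0.98 ± 0.17 and 0.89 ± 0.16). In 5′ v1 only EIF3B was called higher among the eIF3 genes (1.67 ± 0.54, on 10 UMIs in TALL-104, count ratio 3.26 with an exact interval of 1.77 to 6.81), and EIF3K was lower (−0.67 ± 0.21). In 5′ v1, 0 of the 5 genes of the eIF2 group and 0 of the 5 eIF2B genes were called by edgeR or DESeq2, with 1 in each group at an unadjusted p under 0.05, against 10.3% higher and 12.5% lower among all genes.

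EIF5A was higher in Jurkat with both kits (0.75 ± 0.20 and 1.40 ± 0.30). In 3′ v3 it was at 1118, 386, 1079 and 366 CPM in replicates 1 to 4 of Jurkat, against 427, 354, 423 and 329 CPM in TALL-104. Jurkat was the higher line in every library, by log2 1.37 in the mixture of replicates 1 and 3 and 0.14 in that of replicates 2 and 4. Its copy EIF5AL1 took a small part of such reads (2.42 ± 0.25 in 3′ v3), and the sum of both was 788 ± 444 CPM in Jurkat-like against 392 ± 50.4 CPM in TALL-104 (SD, n = 4). EIF5A2 was lower in Jurkat in 3′ v3 (−1.35 ± 0.28). EIF5B was higher with both kits (0.66 ± 0.14 and 1.19 ± 0.30), and EIF6 with neither (0.07 ± 0.15 and −0.14 ± 0.29).

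The human kinase genes split as follows. EIF2AK4 was higher in Jurkat (1.33 ± 0.19 and 1.48 ± 0.37), as was EIF2AK1, the heme-regulated kinase, in 3′ v3 (0.90 ± 0.15). EIF2AK3 was lower in 3′ v3 (−1.20 ± 0.30), and EIF2AK2 was lower there as well (−0.62 ± 0.18), at 41.2, 46.9, 45.8 and 55.0 CPM against 49.2, 111, 47.8 and 111 CPM. The EIF2AK2 difference thus lay mainly in the mixture of replicates 2 and 4, and with a mitochondrial limit of 5% it turned to 0.04 and was not called. EIF4EBP2 was lower in Jurkat in 3′ v3 (−0.46 ± 0.15), and EIF4EBP1 was not called (0.03 ± 0.16 and −0.48 ± 0.27). Of the helicases, EIF4A1 was higher in 3′ v3 (0.48 ± 0.16) and not called in 5′ v1 (−0.13 ± 0.24), and EIF4A2 was lower with both kits (−0.37 ± 0.16 and −1.0 ± 0.25), the first of these at an edgeR adjusted p just under the threshold and not called by DESeq2 (adjusted p = 0.0637). EIF1 and EIF1B were lower in Jurkat with 5′ v1 (−1.18 ± 0.25 and −0.82 ± 0.23) and not called with 3′ v3 (−0.31 ± 0.17 and 0.02 ± 0.14), and the difference between kits was not called for either. With 5′ v1, EIF1 stood at 591 and 518 CPM against 1502 and 1016 CPM. EIF1AX was not called in either kit (0.27 ± 0.17 and 0.77 ± 0.29).

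Other members named by size were EIF2B2 and EIF2D, both higher in Jurkat in 3′ v3 (1.09 ± 0.22 and 0.99 ± 0.19), and the antisense transcript EIF3J-AS1, which was lower (−0.92 ± 0.23 and −1.56 ± 0.48). How strand was counted is not given in the sources used here, and whether reads of EIF3J-AS1 and of its partner were kept apart was not tested. EIF4EBP3 was also called in 3′ v3, on 169 UMIs in Jurkat and 1 in TALL-104, a ratio of 8.72 (95% exact counting interval 1.54 to 346). Replicate 3 gave 151 of the Jurkat UMIs, and DESeq2 did not call EIF4EBP3 higher.

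The size of the line difference was compared between kits within the same fit. The kits share no source of cells, so a shift by kit and a shift by cell mixture cannot be told apart. For the mouse lines, the difference of EL4 from IVA12 was more negative with 5′ v1 than with 3′ v3 for 22 of 61 members and more positive for 12, against 17.1% and 13.9% of all genes. The largest shifts called were in Eif4g3 (1.63 ± 0.45) and Eif3j2 (1.63 ± 0.22) to the EL4 side. To the IVA12 side they were in Eif3g (−1.20 ± 0.14), Eif4a3 (−1.04 ± 0.13), Eif6 (−1.01 ± 0.11), Eif2d (−0.94 ± 0.17), Eif4a1 (−0.93 ± 0.09) and Eif3d (−0.89 ± 0.11). Eef2k (0.87 ± 0.14), Eif4ebp1 (0.86 ± 0.10) and Eef1a1 (0.84 ± 0.14) moved to the EL4 side. By role, 4 of 5 eIF2B genes and 3 of 5 genes of eIF4A, eIF4B and eIF4H shifted to the IVA12 side. Of 6 eEF1 genes, Eef1e1 among them, 3 shifted to the EL4 side and 1 to the IVA12 side. Eef2 and its kinase gene Eef2k shifted to the EL4 side. For the human lines 1 of 60 members passed, on the TALL-104 side, against 0.443% of all genes in that direction and 0.0782% in the other: EIF3M, higher in Jurkat with 3′ v3 and not called with 5′ v1 (326 and 301 CPM against 364 and 348 CPM, interaction −1.32 ± 0.26, edgeR adjusted p = 0.025). EEF2 did not pass the threshold (−1.44 ± 0.32, edgeR adjusted p = 0.053). Without 5′ v1 replicate 1 the mouse counts were 12 more negative and 6 more positive, without replicate 2 they were 14 and 5, and without the library block 0 and 4, with 15 at an unadjusted p under 0.05. Among the human members edgeR called none without 3′ v3 replicate 1 or 2 or without either 5′ v1 library, with 16, 7, 7 and 11 at an unadjusted p under 0.05, while DESeq2 called 3 lower on the full set. EIF3M also lost its call without 3′ v3 replicate 3.

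The kits were also compared within each line, as 5′ v1 minus 3′ v3. Here too the kits share no source of cells, so kit and cell mixture cannot be told apart. In EL4-like cells 9 members were higher and 20 lower, against 17.4% and 19.4% of 11921 genes, and in IVA12-like cells 3 were higher and 6 lower, against 4.92% and 4.7%. In Jurkat-like cells 4 were higher and 3 lower, against 8.24% and 7.88%, and in TALL-104-like cells 2 and 2, against 2.57% and 2.87%. The 4 lines were in the same libraries, so these are not separate tests of the kits. Without one or the other of the 2 libraries of 5′ v1 the EL4 counts fell to 4 higher and 9 lower or to 3 and 3, and the other lines kept at most 1 call. In IVA12-like cells leaving out any 3′ v3 library left 1 member higher and at most 5 lower. In Jurkat-like cells 1 was lower without 3′ v3 replicate 2 or 3 and 5 without replicate 4, and 2 were higher without replicate 1 or 3. In TALL-104-like cells 5 were higher without replicate 1 and 1 without replicate 2, and 1 was lower without replicate 3. With the 3′ v3 mixture of replicates 1 and 3 alone the counts were 12 higher and 36 lower in EL4, 15 and 33 in IVA12, 21 and 28 in Jurkat and 4 and 2 in TALL-104. With that of replicates 2 and 4 alone they were 23 and 29, 22 and 20, 35 and 12, and 16 and 4. The shares of all genes given above are for the full set of libraries. They are not given for one mixture or for fewer libraries, so these counts are not read as particular to the members.

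Eif3f was called in 3 of the 4 lines: it was higher with 5′ v1 in EL4 (1.62 ± 0.24), IVA12 (1.12 ± 0.16) and TALL-104 (1.44 ± 0.36), while Jurkat had 0.55 ± 0.21, not called. In EL4-like cells it stood at 560 to 685 CPM with 3′ v3 and at 1723 and 1984 CPM with 5′ v1. Eef2 behaved in the same manner, with 1.09 ± 0.16 in EL4, 0.73 ± 0.15 in IVA12 and 1.53 ± 0.35 in TALL-104, and 0.20 ± 0.24, not called, in Jurkat. Eif5b was lower with 5′ v1 in the same 3 lines (−1.52 ± 0.22, −1.11 ± 0.20 and −1.63 ± 0.42) and stood at −0.98 ± 0.36, not called, in Jurkat.

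In EL4-like cells all 5 eIF2B genes and 7 of 14 eIF3 genes were lower with 5′ v1 (19.4% of all genes), among the 20 members whose number fell to 9 without 5′ v1 replicate 1 and to 3 without replicate 2. The lower genes were led by Eif3j1 (−2.18 ± 0.31), Eif2b3 (−1.76 ± 0.18), Eif3d (−1.69 ± 0.26) and Eif3g (−1.53 ± 0.17). Eif4a3 (−1.66 ± 0.34), Eif6 (−1.66 ± 0.28), Eif4a1 (−1.51 ± 0.45), Eif2s1 (−1.19 ± 0.27) and Eif2b4 (−1.10 ± 0.17) were lower as well. On the other side were Eef1a1 (1.28 ± 0.20), Eif4ebp1 (1.11 ± 0.13), Eif2ak3 (1.09 ± 0.21), Eif4b (0.63 ± 0.14), Eef1b2 (0.61 ± 0.17), Eif5 (0.59 ± 0.14) and Eif1ad (0.51 ± 0.12). In IVA12-like cells Eif4e3 was higher with 5′ v1 (1.13 ± 0.23), and Eif3j2 (−1.69 ± 0.17), Eif3j1 (−1.55 ± 0.29), Eif4g3 (−1.52 ± 0.36), Eif2b3 (−1.05 ± 0.23) and Eif3c (−0.93 ± 0.21) were lower. In Jurkat-like cells EIF4EBP3 (3.53 ± 0.56), EEF1G (2.70 ± 0.52), EEF2K (0.88 ± 0.18) and EIF4EBP2 (0.83 ± 0.18) were higher, and EEF1A2 (−2.24 ± 0.41), EIF4E3 (−1.37 ± 0.38) and EIF1 (−0.95 ± 0.24) lower. EIF4EBP3 lies next to a read-through transcript with a neighbouring gene, so its counts are uncertain. EIF3B was lower with 5′ v1 in TALL-104-like cells (−1.87 ± 0.48). Human EEF1G stayed low in every library (0.883 to 21.7 CPM in Jurkat-like cells) while mouse Eef1g stood at 1138 to 1496 CPM in EL4-like cells with 3′ v3. The other eEF1B genes EEF1B2 and EEF1D had means of 1634 and 529 CPM in Jurkat-like cells with 3′ v3. Whether reads of EEF1G were lost in counting was not tested, so its counts are uncertain. Reads of one species were not compared with those of the other beyond this.

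Within 3′ v3, members also differed between the 2 cell mixtures. Counting genes at 10 CPM or more whose libraries did not overlap and differed at least 1.5-fold, replicates 1 and 3 of Jurkat were higher for 21 of 55 members and lower for 6, against 17.1% and 33.2% of all genes. The counts were 6 higher and 10 lower of 57 members in EL4 (5.76% and 32.4% of all genes), 11 and 12 of 56 in IVA12 (12.6% and 32.7%), and 8 and 14 of 56 in TALL-104 (5.86% and 38.9%). In the human lines the share of barcodes within the mitochondrial limit moved with the mixture, as given above, and its part in these differences was not tested. EIF5A, EIF4A1 and EEF1E1 in Jurkat-like cells were such members, with EIF4A1 at 1257, 591, 1246 and 598 CPM in replicates 1 to 4. Mixture and target cell number were crossed, since the target was 3000 for replicates 1 and 2 and 6000 for replicates 3 and 4.

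To compare how many cells showed a member, each cell was thinned to 1000 UMIs; no cell was left out, since all had at least 1000. The number of members with a UMI in at least 10% of cells was 37 of 64 in each 3′ v3 library of EL4, 37 to 39 in IVA12, 27 to 35 of 67 in Jurkat and 23 to 25 in TALL-104. With 5′ v1 it was 29 and 26 in EL4, 39 and 36 in IVA12, 32 and 30 in Jurkat and 31 and 29 in TALL-104. Free RNA gives UMIs to cells of the other species as well, where the highest member reached up to 50% of cells, so a share has to be read against that background. Eef1a2 had a UMI in 6.18%, 6.76%, 4.78% and 6.49% of IVA12-like cells in 3′ v3 (69.9% to 78.3% before thinning) and in 0.0704%, 0%, 0.112% and 0% of EL4-like cells (1.31% to 5.1% before thinning). The 0 of 536 and 0 of 1209 cells have exact 95% upper limits of 0.686% and 0.305%, which hold for cells at the thinned depth. The background in human cells, thinned alike, was 0% to 0.244%. Eif4g3 was in 5.00%, 8.21%, 4.17% and 9.02% of EL4-like (70.6% to 90.3% before thinning) and in 0.122% to 0.725% of IVA12-like cells, with a background of 0% to 0.312%. EIF4E3 was in 2.30%, 3.98%, 3% and 6.44% of TALL-104-like (6.16% to 16.0% before thinning) and in 0.153% to 0.694% of Jurkat-like cells, with a background of 0% to 0.0494%. Upper limits and intervals cover counting error only.

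Some members could not be followed. Eif4e1b and EIF4E1B, EIF2B5-AS1 and EIF1AX-AS1 had 0 UMIs in every line and library. In the line comparisons 3 mouse members (Eif2c5, Eif4e1b and Eif4ebp3) and 7 human members were left out by the filter on low counts. Of the latter, EEF1A2 had 134 UMIs in Jurkat and 0 in TALL-104 with 3′ v3, at least 2.3-fold higher against a floor of 3 UMIs over the group. Members with near-identical copies carry an uncertain split of reads, among them EIF3C and EIF3CL, whose sum was 10.8 ± 3.20 CPM in Jurkat-like cells with 3′ v3 (SD, n = 4), and EIF2S3 and EIF2S3L.

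A list of 46 other genes of the pathway (poly(A)-binding proteins and regulators, termination and recycling factors, the mTORC1 kinases, the eIF2 phosphatase subunits, the enzymes that modify eIF5A and eEF2, and organelle factors) was counted in the same way. With 3′ v3, 13 of 45 tested were higher and 22 lower in EL4 than in IVA12, with a median of −0.17, against 41.2% and 39.5% of all genes. In Jurkat 22 were higher and 3 lower than in TALL-104, with a median of 0.45, against 36.2% and 27.4%. With 5′ v1 the counts were 11 and 21 for the mouse lines, against 37.3% and 39.4% of all genes, and 11 and 3 for the human lines, against 10.3% and 12.5%. Mcts2 (−2.37 ± 0.25), Paip2, which restrains the poly(A)-binding protein (−1.86 ± 0.06), and Mknk1, a kinase of eIF4E (−1.57 ± 0.10), were lower in EL4 in 3′ v3, and Paip1, which stimulates it, was higher (1.10 ± 0.09). PDCD4, an inhibitor of eIF4A, was lower in Jurkat with both kits (−3.24 ± 0.26 and −3.85 ± 0.42), as was PPP1R15A, which directs dephosphorylation of eIF2 (−2.16 ± 0.20 and −3.28 ± 0.33). PAIP2B (3.35 ± 0.65) and DPH6, of diphthamide synthesis on eEF2 (3.27 ± 0.38), were higher in Jurkat in 3′ v3.

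In the difference between kits, 5 of 45 mouse genes of this list shifted to the EL4 side and 12 to the IVA12 side, against 13.9% and 17.1% of all genes, while 0 human genes were called by edgeR or DESeq2, with 4 at an unadjusted p under 0.05. Ppp1r15a shifted most, from −0.83 ± 0.07 with 3′ v3 to 0.40 ± 0.11 with 5′ v1 (interaction 1.23 ± 0.13). Between kits, 6 were higher and 11 lower with 5′ v1 in EL4 (17.4% and 19.4% of all genes), 2 and 0 in IVA12 (4.92% and 4.7%), 5 and 2 in Jurkat (8.24% and 7.88%), and 2 and 0 in TALL-104 (2.57% and 2.87%). At an unadjusted p under 0.05 the lower ones were 10 in IVA12 and 2 in TALL-104, and DESeq2 called 8 and 1. Dph1, which starts diphthamide synthesis, was higher with 5′ v1 in all 4 lines (2.91 ± 0.48, 3.90 ± 0.34, 3.46 ± 0.33 and 3.46 ± 0.94 in EL4, IVA12, Jurkat and TALL-104).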

How the data were processed

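The deposited files are matrices of UMI counts by gene and cell barcode. Before counting, the authors downsampled the reads; they counted with Cell Ranger 3.0.2 against the combined hg19 and mm10 reference, version 1.2.0; how strand was counted is not given in the sources used here. Of 8 listed libraries 7 were analysed. The members, the roles and the pathway list were chosen with earlier results of these data known. Barcodes with at least 1000 UMIs, over 80% from one species and under 10% mitochondrial were kept, clustered per species with scanpy 1.11.5 (1000 variable genes, 15 components, 15 neighbours, Leiden resolution 0.5, members and mitochondrial genes left out) and named from listed markers; cluster settings were partly set after seeing clusters. Mixed-species barcodes were removed by the species limit, and no doublet caller was run within a species. Counts were summed per line and library and tested with edgeR 4.0.16 (R 4.3.3): filterByExpr, TMM scaling, glmQLFit and glmQLFTest, Benjamini-Hochberg over all tested genes, in 10 comparisons. Lines of a species came from the same libraries, so the library was a block in the line comparisons. Log2 differences are given ± SE. Named members were, per comparison, up to 10 in each direction by size among those called, those whose line difference differed between kits, and a set of core factors listed regardless of value; from the pathway list, up to 6 by size among those called. DESeq2 1.42.0, DESeq2 size factors in edgeR, no low-count filter, other cell limits, one mixture at a time, no block and leaving out each library were the alternatives. Putting unnamed clusters with their closest line was added after seeing the data. The tests were also run on simulated counts with a fixed spread and no difference between mixtures. Such a check cannot give their error rates in these data. Ratios within a library used a pseudocount of 0.5 CPM. Counts of a few UMIs have exact 95% intervals.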

Additional observations from a re-analysis of the deposited data

Results flagged for a closer look

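In 6 of 164 groups of 4 libraries of 3′ v3, 1 library lay far from the others by Dixon's test at its 95% level, which chance gives in about 1 of 20 groups. Eif2b4 was at 32.2 CPM in EL4-like cells of replicate 1 and at 37.9 to 38.6 CPM in the others, and Eif3j1 was at 55.5 CPM in IVA12-like cells of replicate 1 against 99.7 to 108 CPM. EIF5B was at 324 CPM in Jurkat-like cells of replicate 3 against 198 to 215 CPM, and EEF2K at 12.3 CPM in TALL-104-like cells of replicate 4 against 7.29 to 7.95 CPM. Eif4e3 in EL4-like cells of replicate 1 (0.0238 CPM, a single UMI) and EIF4EBP3 in TALL-104-like cells of replicate 3 (0.405 CPM, a single UMI) stood alone because the other libraries were at 0.

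The line difference itself differed between kits, by the interaction test in edgeR, for these named members. Relative to 3′ v3, the 5′ v1 difference of EL4 from IVA12 was shifted to the EL4 side for Eif4g3 (1.63), Eif3j2 (1.63), Eef2k (0.87), Eif4ebp1 (0.86), Eef1a1 (0.84), Eif3e (0.59), Eef2 (0.40), Eef1g (0.40) and Eef1b2 (0.37). It was shifted to the IVA12 side for Eif3g (−1.20), Eif4a3 (−1.04), Eif6 (−1.01), Eif2d (−0.94), Eif4a1 (−0.93), Eif3d (−0.89), Eif2s1 (−0.72), Eif4g1 (−0.53), Eef1d (−0.50), Eif4e (−0.43) and Eif5b (−0.37). EIF3M was the human member, shifted to the TALL-104 side by −1.32.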

How the results depend on the processing

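Over 306 named results and 5356 alternative values, 4845 kept their direction and side of the threshold, 326 were no longer called, 165 became called and 20 reversed. DESeq2 size factors in edgeR changed no count of calls by over 1.5 times. Counts below are of members higher and lower in the first-named group. The shares of all genes given above belong to the main setting and are not given for the alternatives. Changes in these counts are therefore not read as particular to the members.

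The lines of a species were paired by library, since their cells came from the same one. With no replicate block the counts were 9 higher and 15 lower for EL4 against IVA12 with 3′ v3 (16 and 32 with it), 10 and 20 with 5′ v1 (16 and 35), 4 and 0 for the difference between kits (12 and 22), 16 higher for Jurkat against TALL-104 with 3′ v3 (34), 1 and 2 with 5′ v1 (7 and 7), and 0 lower for the human difference between kits (1). For the kits, no paired analysis was possible because their libraries share no source and the replicate numbers only follow the listing.

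With 3′ v3 replicates 1 and 3 only, the kit counts became 36 lower in EL4 (20), 15 and 33 in IVA12 (3 and 6), 21 and 28 in Jurkat (4 and 3) and 4 higher in TALL-104 (2), with 13 higher for Jurkat against TALL-104 with 5′ v1 (7) and 6 lower in the human difference between kits (1). Kit differences then reversed for EIF1AX in Jurkat (−0.33), Eif3e in EL4 (−0.30) and, in IVA12, Eif4g1 (0.25) and Eif5a (−0.25). With replicates 2 and 4 only they were 23 higher in EL4 (9), 22 and 20 in IVA12, 35 and 12 in Jurkat and 16 and 4 in TALL-104 (2 and 2), with 19 higher in the mouse difference between kits (12), 17 higher for Jurkat against TALL-104 with 3′ v3 (34), 12 higher with 5′ v1 (7), and 3 and 7 in the human difference between kits (0 and 1). Reversed were EEF1A1 (0.42) and EIF2S1 (−0.037) for Jurkat against TALL-104, Eif3e (−0.11) and Eif5b (−0.12) for EL4 against IVA12, and kit differences of EIF2S1 (0.68), EIF4E (0.66) and EIF6 (0.47) in Jurkat, Eef1d (0.34), Eif1ax (0.44), Eif3e (0.26) and Eif4g2 (−0.31) in IVA12, and Eif1 (0.25), Eif1ax (0.31) and Eif5a (0.28) in EL4. The cause was not tested.

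DESeq2 gave 5 higher for the kits in IVA12 (3), 8 and 8 in Jurkat (4 and 3), and 3 lower in the human difference between kits (1), as did edgeR without the low-count filter, which gave 1 lower for the kits in Jurkat (3). At least 2000 UMIs per cell gave 22 higher for Jurkat against TALL-104 with 3′ v3 and 0 lower in the human difference between kits. A mitochondrial limit of 5% gave 1 and 1 for the kits in TALL-104, 1 lower for Jurkat against TALL-104 with 3′ v3 (7), 14 and 2 with 5′ v1, 0 lower in the human difference between kits, and 0.041 for EIF2AK2 (−0.62); it moved the members' share with 3′ v3 to 2.64% in EL4 (2.57%) and 3.86% in IVA12. Over 95% from one species gave 1 and 0 for the kits in TALL-104, 17 and 4 for Jurkat against TALL-104 with 3′ v3, 3 lower with 5′ v1 and 0 lower in the difference between kits. Without cells in which markers of the other line made up over 20% of marker UMIs, the counts were 1 and 1 for the kits in TALL-104, 11 higher for Jurkat against TALL-104 with 5′ v1 and 2 lower in the difference between kits. With unnamed clusters put with their closest line, an alternative chosen after seeing the data, that last count was 0. The mean number of members detected per 3′ v3 library moved from 37 in EL4 to 36.8 (limit of 20%), 37.5 (5%) and 36.2 (unnamed clusters added), and from 24.2 in TALL-104 to 25.5 (2000 UMIs), 20.2 (5%), 22.5 (95% from one species) and 25.2 (without cells of mixed markers). The causes were not tested.

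Leaving out 1 library at a time gave 14 to 16 higher and 30 to 32 lower for EL4 against IVA12 with 3′ v3, 12 to 18 and 30 to 35 with 5′ v1, and 5 to 13 and 12 to 22 for the difference between kits. For Jurkat against TALL-104 it gave 19 to 29 and 5 to 9 with 3′ v3, 0 to 10 and 0 to 7 with 5′ v1, and 0 to 0 and 0 to 1 for the difference between kits. For the kits it gave 3 to 9 and 3 to 22 in EL4, 0 to 1 and 0 to 5 in IVA12, 0 to 4 and 0 to 5 in Jurkat, and 0 to 5 and 0 to 2 in TALL-104. A lone 5′ v1 library was assumed to vary like the others. EIF4E3 for Jurkat against TALL-104 with 5′ v1 ran from −5.69 without 5′ v1 replicate 2 to 6.29 without replicate 1, where the remaining TALL-104 library has 0 UMIs. TALL-104 with 5′ v1, with 75 and 41 cells, gives the least precise values.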
